A study of Mus musculus with 4 samples.

Results

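The genes described here are those of cholesterol synthesis, its control, and cholesterol export and turnover, in hippocampal tissue from mice of the inbred strain C57BL/6. They were chosen by name from a list of 32 gene symbols, and 32 of the 32 were present among the 15713 genes of the deposited table. RNA sequencing covered 4 libraries: 2 from mice with developmental exposure to ATO at 5000 ppb and 2 from untreated control mice, all aged 11 to 12 weeks. ATO is not spelled out in the labels; the series title names offspring exposed to arsenic. No genotype, transgene or sex is given, and nothing says whether the replicates came from separate animals or litters, so the p-values rest on the spread between libraries alone, which may be technical.

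Cholesterol cannot cross the blood-brain barrier in quantity, so the brain makes its own, in oligodendrocytes for myelin and in astrocytes for export to neurons on particles carrying apolipoprotein E. Synthesis starts from acetyl-CoA, passes through mevalonate and farnesyl diphosphate to squalene, and ends with the conversion of lanosterol to cholesterol. SCAP carries the SREBP transcription factors out of the endoplasmic reticulum when sterols are low, and the INSIG proteins hold SCAP back when sterols are high. The liver X receptors (LXR) respond to oxysterols and induce the exporters ABCA1 and ABCG1, while CYP46A1 turns neuronal cholesterol into a hydroxylated form that can leave the brain.

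The mRNA of 31 of the 32 genes did not differ between ATO and control beyond the threshold, and 1 fell, the SREBP gene Srebf1, by 23.2%. The fall of Srebf1 passed narrowly (edgeR adjusted p = 0.0497), and it did not pass in limma-voom or in the Wald test of DESeq2. The largest difference in the other direction was that of Ebp, a sterol isomerase of a late synthesis step, which was 32.7% higher and did not pass. The median log2 fold change over the 32 genes was 0.015, against -0.005 over all genes tested. A gene is said to have passed, risen or fallen at a Benjamini-Hochberg adjusted p under 0.05 in edgeR's quasi-likelihood test over the whole table. By that rule 3.73% of all genes passed, 2.87% higher and 0.859% lower in ATO, and of the 32 cholesterol genes 3.12% passed, so their share was near the background.

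Promoter windows of the genes were read from RefSeq on GRCm38.p6, and 26 of the 32 genes had at least 1 window, 37 in all. Each window runs from 250 bases before to 50 bases after an annotated start, and some windows of 1 gene overlap. SREBPs act at sterol regulatory elements together with the factors NF-Y and Sp1, which bind CCAAT and GC boxes. The sterol element was searched as the letters TCACNCCAC, the NF-Y site as CCAAT, the GC box as GGGCGG and the E-box as CACGTG. Both strands were searched, and matches that overlap were each counted. The element TCACNCCAC was found in 1 of the 37 windows, that of Hmgcs1, and in 1.24% of the 32851 windows of all genes. CCAAT was found in 21 of the 37 windows (56.8%), against 37.4% of all windows. GGGCGG was found in 26 (70.3%), against 35.7%, and CACGTG in 7 (18.9%), against 7.15%. The windows of all genes were not matched to the 37 in base composition or expression, and some genes gave more than 1 window. The shares therefore cannot tell a trait of cholesterol genes from one of base composition. These are matches of letters and no evidence of binding. A site that differs from the letters by a base was not found, so a window without a match may still hold a sterol element. The windows below are first the 3 of the gene that fell, Srebf1, in order along its strand. Then come those of Ebp and Sc5d, which had the smallest p among the genes that were higher. The last is that of Hmgcs1, which matched the letters of the sterol element. They are written 5′ to 3′ on the strand of the gene, with matches to the sterol element, the NF-Y site and the GC box on either strand in capitals.
Srebf1, most upstream start (chr11:60222532-60222831, minus strand): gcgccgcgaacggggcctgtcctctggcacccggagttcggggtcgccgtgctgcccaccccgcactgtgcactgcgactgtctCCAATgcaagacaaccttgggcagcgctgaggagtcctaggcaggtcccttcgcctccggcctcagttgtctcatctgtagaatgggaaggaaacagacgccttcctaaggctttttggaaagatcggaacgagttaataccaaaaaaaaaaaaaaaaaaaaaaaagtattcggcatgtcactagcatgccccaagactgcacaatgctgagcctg
Srebf1, middle start (chr11:60220578-60220877, minus strand): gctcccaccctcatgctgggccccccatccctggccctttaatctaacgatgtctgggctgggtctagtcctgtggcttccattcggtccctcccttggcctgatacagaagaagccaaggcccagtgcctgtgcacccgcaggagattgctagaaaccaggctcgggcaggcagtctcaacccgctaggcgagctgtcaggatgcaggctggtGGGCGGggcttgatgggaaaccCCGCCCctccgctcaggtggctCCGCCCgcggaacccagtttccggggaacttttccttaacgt
Srebf1, most downstream start (chr11:60210422-60210721, minus strand): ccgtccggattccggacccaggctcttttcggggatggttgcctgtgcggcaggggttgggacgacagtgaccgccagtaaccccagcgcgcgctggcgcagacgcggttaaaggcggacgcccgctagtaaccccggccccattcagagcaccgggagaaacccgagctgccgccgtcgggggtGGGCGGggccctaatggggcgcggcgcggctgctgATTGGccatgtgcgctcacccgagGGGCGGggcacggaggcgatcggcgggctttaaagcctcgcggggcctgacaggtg
Ebp (chrX:8193463-8193762, minus strand): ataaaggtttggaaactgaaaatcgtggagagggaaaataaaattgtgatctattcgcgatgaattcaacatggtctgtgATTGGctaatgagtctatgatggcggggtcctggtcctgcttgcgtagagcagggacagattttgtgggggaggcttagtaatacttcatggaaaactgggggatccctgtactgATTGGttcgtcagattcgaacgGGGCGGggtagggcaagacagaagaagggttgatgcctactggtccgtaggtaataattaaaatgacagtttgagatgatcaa
Sc5d (chr9:42264251-42264550, minus strand): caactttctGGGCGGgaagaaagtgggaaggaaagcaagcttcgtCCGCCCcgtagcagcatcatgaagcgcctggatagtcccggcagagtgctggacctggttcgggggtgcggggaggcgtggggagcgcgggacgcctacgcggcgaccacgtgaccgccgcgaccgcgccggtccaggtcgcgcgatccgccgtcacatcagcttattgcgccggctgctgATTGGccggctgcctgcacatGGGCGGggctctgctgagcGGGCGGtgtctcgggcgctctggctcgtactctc
Hmgcs1 (chr13:119690101-119690400, plus strand): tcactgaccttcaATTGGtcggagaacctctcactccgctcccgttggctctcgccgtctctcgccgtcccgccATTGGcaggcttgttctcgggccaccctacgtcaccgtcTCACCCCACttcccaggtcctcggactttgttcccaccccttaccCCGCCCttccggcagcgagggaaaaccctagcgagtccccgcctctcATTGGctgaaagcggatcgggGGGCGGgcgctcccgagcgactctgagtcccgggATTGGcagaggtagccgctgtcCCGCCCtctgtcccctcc
Of the Srebf1 windows, the most upstream holds 1 CCAAT match and 0 GGGCGG, the middle one 0 and 3, and the most downstream 1 and 2. The deposited counts are per gene and do not separate transcripts from these starts. Ebp has 2 CCAAT and 1 GGGCGG, Sc5d 1 and 4, and Hmgcs1 4 and 3 besides the match to the sterol element.

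Total counts were 17251032 and 16696546 in ATO replicates 1 and 2, against 14832214 and 15078919 in control replicates 1 and 2, so 1 count was worth 0.0574 to 0.0678 CPM (counts scaled by TMM library size). The smallest count of any cholesterol gene in a library was 57, for Nr1h3. Of the markers of cell types that the dissection can hold, 19 of 20 for the choroid plexus rose and 0 fell. Their summed level was 3365 and 4208 CPM in ATO, against 152 and 220.4 CPM in control. Ependymal markers also rose, 7 of 9, with sums of 53.7 and 38.6 CPM in ATO and 18.9 and 22.8 CPM in control. None of the 12 astrocyte, 10 microglia and 10 neuron markers passed in edgeR, and 6, 1 and 1 of them had an unadjusted p under 0.05. The neuron markers, which cannot tell hippocampus from other brain tissue, summed to 10625 and 10879 CPM in ATO and 11185 and 10701 CPM in control. Of 12 oligodendrocyte markers 1 fell and 0 rose, with sums of 4635 and 4443 CPM in ATO and 4605 and 4743 CPM in control. Astrocyte markers summed to 5639 and 5909.6 CPM in ATO, against 5896 and 5663 CPM in control. Of 7 markers of oligodendrocyte precursors 1 rose and 1 fell, of 8 endothelial and pericyte markers 1 rose, and of 10 leptomeningeal markers 1 rose and 1 fell. At an unadjusted p under 0.05, 6 leptomeningeal markers were higher and 1 lower, and the median log2 fold change of that list was 0.69. No marker in these lists was at 0 counts in any library. Whether the choroid plexus and ependymal transcripts take part in any difference reported here was not tested. In whole tissue, fewer cells of a type and less RNA per cell cannot be told apart.

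**Figure D1:**
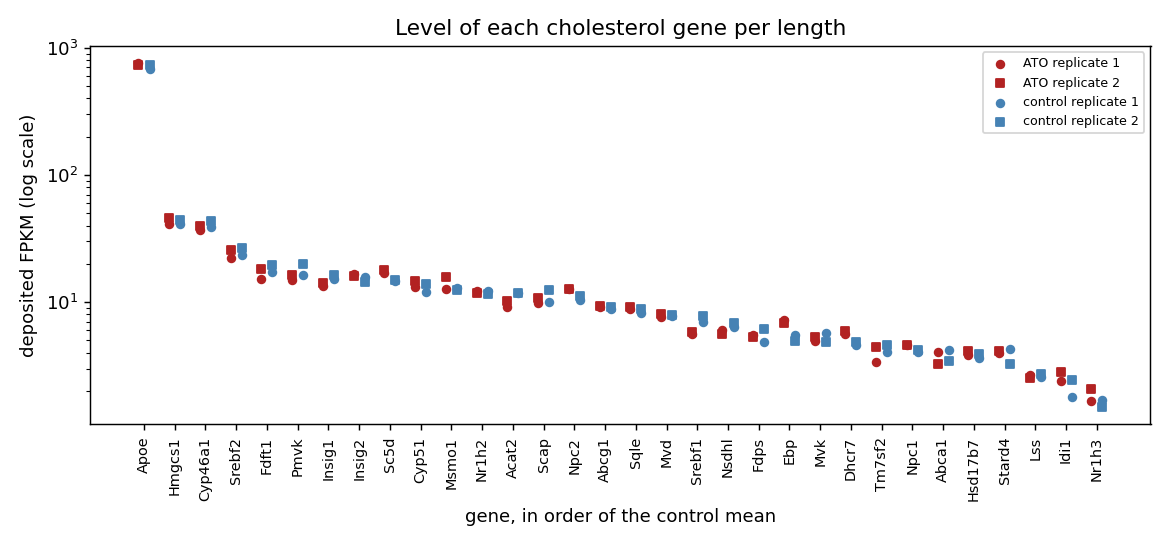
Deposited FPKM of the 32 cholesterol genes on a log scale, in order of the control mean; red points left of each tick are the 2 ATO libraries and blue points right of it the 2 control libraries, with circles for replicate 1 and squares for replicate 2. Apoe stands at 746 FPKM in ATO and 707 FPKM in control, far above Hmgcs1, the next gene.

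Levels of different genes were compared per length, as the deposited FPKM. Apoe, the gene of the main apolipoprotein of the brain, was the most abundant at 746 ± 15.9 FPKM in ATO and 707 ± 35.3 FPKM in control (mean ± SD, n = 2 each). Next came Hmgcs1, the synthase that makes HMG-CoA, with 43.7 ± 3.28 FPKM in ATO and 42.9 ± 2.46 FPKM in control, and Cyp46a1 with 38.1 ± 2.11 FPKM in ATO and 41.2 ± 3.31 FPKM in control. The control ranges of Hmgcs1 and Cyp46a1 overlapped, so their order is not resolved, while both lay above Srebf2. Srebf2, the SREBP gene with the main part in sterol synthesis, stood at 23.9 ± 2.35 FPKM in ATO and 25.0 ± 2.33 FPKM in control, above Srebf1 with 5.71 ± 0.0919 FPKM in ATO and 7.39 ± 0.636 FPKM in control. The lowest was Nr1h3, which encodes LXR alpha, at 1.88 ± 0.304 FPKM in ATO and 1.61 ± 0.148 FPKM in control. Its relative Nr1h2, which encodes LXR beta, was at 12.1 ± 0.269 FPKM in ATO and 12.0 ± 0.445 FPKM in control. Annotated genes overlap some of these loci. Gm43738 shares 7512 bases with Fdps on the same strand, and Gm20388 shares 9822 bases with Mvd and 4930483K19Rik 11268 bases with Lss on the opposite strand. Gm13783 shares 6873 bases with Nr1h3 on the same strand and Gm48342 6190 bases with Hmgcs1 on the opposite strand. The counting may have split or dropped reads of these 5 genes, so their places in the order of levels are uncertain. Shorter overlaps touch other cholesterol genes, some with genes that were counted. Tm7sf2 shares 532 bases with Vps51 on the same strand, and Fdft1 774 bases with Ctsb on the opposite strand. Vps51 had a log2 fold change of -0.297 (edgeR adjusted p = 0.0793) and Ctsb of 0.012. The part of these overlaps in any level or fold change was not tested.

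The question of the design is how the hippocampal transcriptome differs between ATO and control. For the control of the pathway, Srebf1 (ENSMUSG00000020538, chromosome 11 from 60199089 to 60222581, minus strand, GRCm38) is the SREBP gene known mainly for fatty acid synthesis and as an LXR target. It had 549 and 544 counts in ATO, against 581 and 668 in control. Scaled by library size this was 31.5 and 32.7 CPM in ATO, against 39.4 and 44.2 CPM in control. Both ATO libraries lay below both controls, and the difference of the means was larger than the gap between the controls. Its mean was 32.1 ± 0.872 CPM in ATO and 41.8 ± 3.41 CPM in control (SD, n = 2 each), and edgeR gave a log2 fold change of -0.38 ± 0.10 (SE, adjusted p = 0.0497). In the authors' deposited table the adjusted p of Srebf1 was 0.0567 with a log2 fold change of -0.38. Srebf1 did not pass with library size only (adjusted p = 0.0628), in limma-voom (0.0533) or in the Wald test of DESeq2 (0.149). Leaving out control replicate 2, ATO replicate 1 or ATO replicate 2 also ended the call (adjusted p = 0.237, 0.221 and 0.0853), with log2 fold changes of -0.30, -0.35 and -0.41. Rai1, a gene on the opposite strand that shares 109 bases with Srebf1, had a log2 fold change of -0.09 (adjusted p = 0.616).

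**Figure D2:**
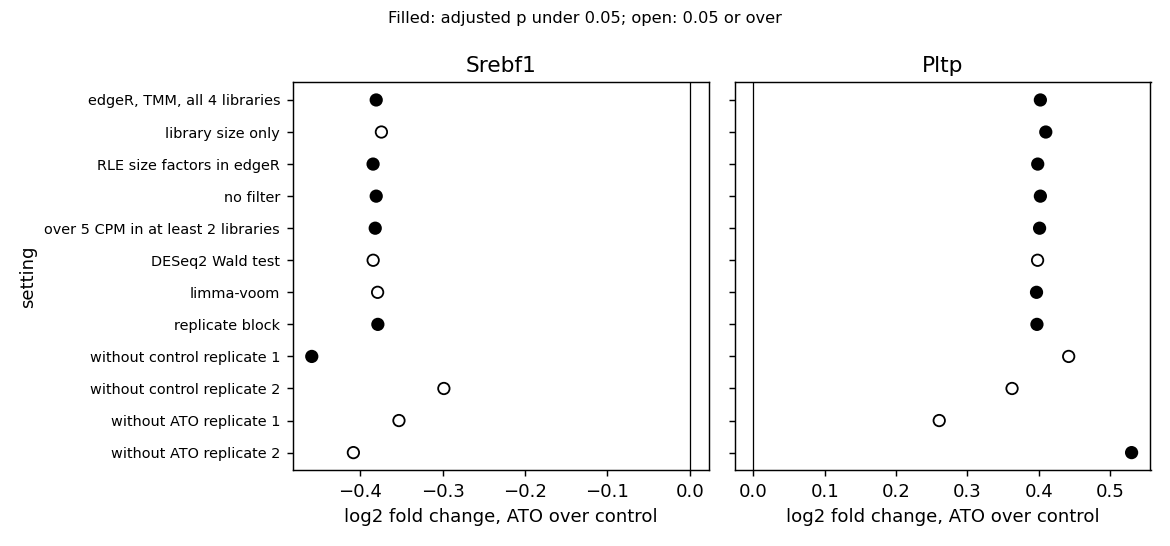
Log2 fold change of ATO over control for Srebf1 (left) and for Pltp, a phospholipid transfer protein gene (right), under each setting; filled points have an adjusted p under 0.05 and open points 0.05 or over. All points of Srebf1 lie between -0.46 and -0.30 and all points of Pltp between 0.26 and 0.53, on 1 side of 0, while the call comes and goes.

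The other 4 genes of SREBP control did not pass, and 0 of them had an unadjusted p under 0.05 in edgeR. Srebf2 had 158 and 185 CPM in ATO, against 169 and 192 CPM in control, with overlapping groups and a log2 fold change of -0.07 ± 0.09. Scap, the escort of SREBP, had 72.8 and 80.8 CPM in ATO and 75.2 and 92.8 CPM in control, also overlapping (log2 -0.13 ± 0.10). Insig1, the INSIG gene that is itself an SREBP target, had 41.4 and 44.4 CPM in ATO, against 47.5 and 50.7 CPM in control. Both ATO libraries lay below the controls, and the log2 fold change was -0.19 ± 0.09 with an adjusted p of 0.282 in edgeR. Insig2, the other INSIG gene, had 57.9 and 55.9 CPM in ATO, against 54.9 and 49.6 CPM in control. Here ATO lay above the controls, by less than the gap between them (log2 0.12 ± 0.09, edgeR adjusted p = 0.513).

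**Figure D3:**
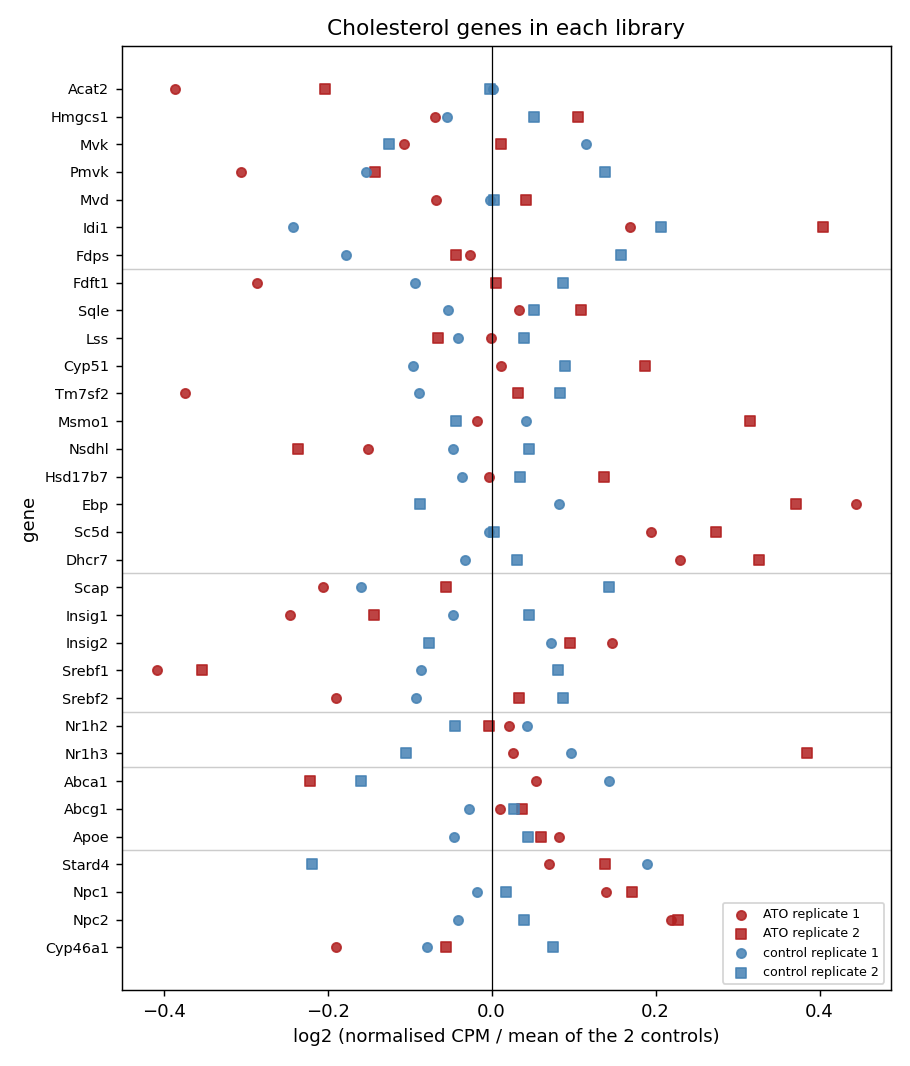
Level of each of the 32 genes in each library as log2 of its normalised CPM over the mean of the 2 controls; red is ATO, blue control, circles replicate 1 and squares replicate 2, and grey lines part the roles. The ATO points of Srebf1 (31.5 and 32.7 CPM) lie left of both controls and those of Ebp, Sc5d and Dhcr7 right of both, while for 21 genes the groups overlap.

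The 7 genes from acetyl-CoA to farnesyl diphosphate had a median of -0.035 on the log2 scale of fold changes. In edgeR 0 passed and 1, Acat2, had an unadjusted p under 0.05. Hmgcs1 had 189 and 213 CPM in ATO, against 191 and 205 CPM in control, a log2 fold change of 0.02 ± 0.08 with a 95% interval from -0.15 to 0.19. Its groups overlapped, and the interval, like all those given here, is not adjusted for the number of genes. Acat2, the cytosolic thiolase of the first step, had 23.1 and 26.2 CPM in ATO, against 30.3 and 30.2 CPM in control. The ATO libraries lay below the controls, which were close together, and the log2 fold change was -0.29 ± 0.11 with an unadjusted p of 0.0178 and an adjusted p of 0.171 in edgeR. Pmvk, phosphomevalonate kinase, had 25.3 and 28.4 CPM in ATO and 28.2 and 34.4 CPM in control, with overlap (log2 -0.22 ± 0.12). Idi1, the isomerase of isopentenyl diphosphate, ran the other way at 8.38 and 9.87 CPM in ATO, against 6.31 and 8.61 CPM in control, also with overlap (log2 0.29 ± 0.199). The genes of mevalonate kinase (Mvk), the decarboxylase of mevalonate diphosphate (Mvd) and farnesyl diphosphate synthase (Fdps) lay between -0.05 and -0.01 on the log2 scale, with overlapping groups.

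In edgeR 3 of the 11 genes from squalene to cholesterol had an unadjusted p under 0.05, against 18.1% of all genes. Of the 11 genes 0 passed, and their median log2 fold change was 0.07. Their first steps, squalene synthase (Fdft1), squalene epoxidase (Sqle), lanosterol synthase (Lss) and the lanosterol demethylase Cyp51, had overlapping groups and log2 fold changes of -0.13, 0.07, -0.03 and 0.10. The last 3 enzymes listed were higher in both ATO libraries than in both controls. Ebp (ENSMUSG00000031168, chromosome X from 8185329 to 8193512, minus strand) had 16.6 and 15.8 CPM in ATO, against 13.0 and 11.5 CPM in control, a log2 fold change of 0.41 ± 0.14 with an adjusted p of 0.138 in edgeR. Sc5d, a sterol desaturase, had 82.3 and 86.9 CPM in ATO, against 71.8 and 72.1 CPM in control (log2 0.23 ± 0.08, edgeR adjusted p = 0.126). Dhcr7, the reductase that yields cholesterol, had 32.4 and 34.7 CPM in ATO, against 27.1 and 28.3 CPM in control (log2 0.28 ± 0.10, edgeR adjusted p = 0.165). For Ebp, Sc5d and Dhcr7 the groups did not overlap, as was so for 48.1% of all genes. The 95% intervals of the 3, from 0.11 to 0.71, 0.06 to 0.40 and 0.06 to 0.497, did not include 0. That restates their unadjusted p under 0.05, and none passed over the whole table. Nsdhl, a dehydrogenase of sterol demethylation, had 17.0 and 16.0 CPM in ATO against 18.2 and 19.5 CPM in control (log2 -0.19 ± 0.13, edgeR adjusted p = 0.460). The remaining 3, the methylsterol oxidase Msmo1, the ketoreductase Hsd17b7 and the sterol reductase Tm7sf2, overlapped between groups, with log2 fold changes of 0.16, 0.07 and -0.16. Summed over the 18 synthesis genes the level was 752 and 841 CPM in ATO, against 752 and 799 CPM in control, so the groups overlapped.

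**Figure D4:**
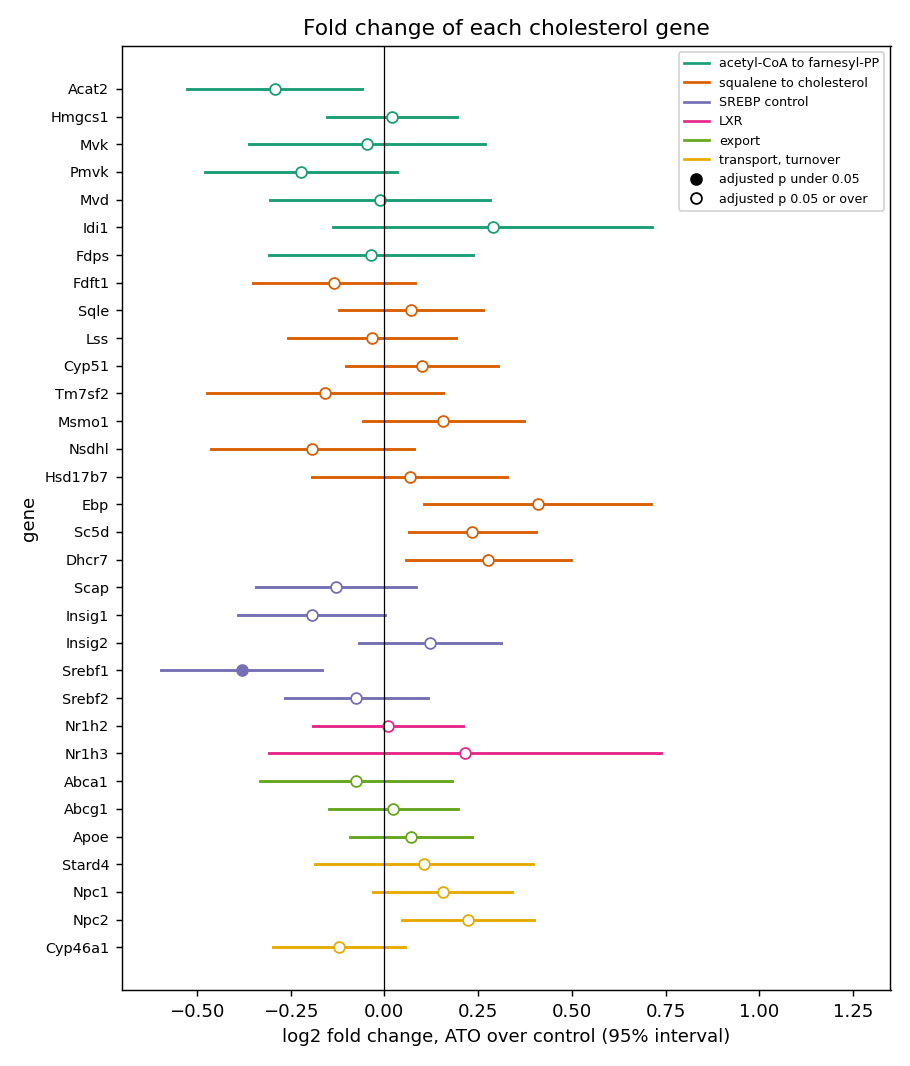
Log2 fold change of ATO over control for each of the 32 genes, coloured by role, with unadjusted 95% intervals; the filled point passed an adjusted p of 0.05 and open points did not. Srebf1 at -0.38 is the filled point, and Ebp at 0.41 is the highest.

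Of the 5 genes of LXR and export 0 passed in edgeR, and 0 had an unadjusted p under 0.05. Nr1h2 had 40.9 and 40.2 CPM in ATO and 41.5 and 39.1 CPM in control, a log2 fold change of 0.01 ± 0.09. Nr1h3 had 4.13 and 5.30 CPM in ATO and 4.34 and 3.77 CPM in control, and its interval from -0.31 to 0.74 was the widest of all 32. Abca1, which loads cholesterol onto apolipoproteins, had 41.4 and 34.2 CPM in ATO and 44.0 and 35.7 CPM in control, with overlap (log2 -0.08 ± 0.12). Abcg1, which exports it to lipid-bearing particles, had 66.6 and 67.9 CPM in ATO and 64.9 and 67.4 CPM in control, with overlap (log2 0.02 ± 0.08). Apoe had 1607 and 1583 CPM in ATO, against 1470.4 and 1566 CPM in control. Both ATO libraries lay just above the controls, by less than the gap between the controls, and its interval, from -0.09 to 0.23 on the log2 scale, was the narrowest of the 32. Apoe made up 48.7% to 51.3% of the summed CPM of the 32 genes in each library.

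Among the 4 genes of transport and turnover 0 passed in edgeR and 1, Npc2, had an unadjusted p under 0.05. Npc2, the soluble lysosomal cholesterol carrier, had 68.4 and 68.9 CPM in ATO, against 57.2 and 60.5 CPM in control. The groups did not overlap, with a log2 fold change of 0.22 ± 0.08, an unadjusted p of 0.0165 and an adjusted p of 0.164 in edgeR. Npc1, the membrane protein that receives cholesterol from it, had 51.4 and 52.5 CPM in ATO, against 46.1 and 47.2 CPM in control, again without overlap (log2 0.16 ± 0.09, edgeR adjusted p = 0.373). Stard4, a cytosolic sterol carrier, overlapped with 22.2 and 23.2 CPM in ATO and 24.1 and 18.1 CPM in control (log2 0.11 ± 0.14). Cyp46a1 had 119 and 131 CPM in ATO and 129 and 143 CPM in control, with overlap (log2 -0.12 ± 0.08).

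Over the 32 genes, 17 had a log2 fold change above 0 and 15 below. The groups did not overlap for 11 of them (34.4%), against 48.1% of all genes, and 6 had an unadjusted p under 0.05 (18.8%), against 18.1% of all genes. In limma-voom and in the Wald test of DESeq2 0 of the 32 passed. For 20 of the 32 the gap between the 2 controls was larger than the difference between the group means (62.5%), as it was for 51.5% of all genes. The 95% interval lay within 1 log2 unit on either side of 0 for all 32 genes and within 0.5 for 27, against 13416 and 8960 of all 15713 genes. The replicates differed in 1 direction for most of the genes. Replicate 2 was higher than replicate 1 for 24 genes in ATO (median log2 difference 0.10) and for 23 in control (0.08), while over all genes these medians were 0.005 and 0.001.

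Of 59 other genes of the pathway that were in the table, from 6 lists with 62 symbols, 1 rose and 0 fell in edgeR, against 3.73% of all genes that passed. The gene that rose was Pltp, the phospholipid transfer protein, with 72.5 and 60.1 CPM in ATO against 51.5 and 48.9 CPM in control, a log2 fold change of 0.40 ± 0.10 (edgeR adjusted p = 0.0379). Both ATO libraries lay above the controls, but its adjusted p was 0.411 without ATO replicate 1 (log2 0.26), 0.0755 without control replicate 1, 0.192 without control replicate 2 and 0.0793 in the Wald test of DESeq2. Choroid plexus markers in these libraries summed to 3365 and 4208 CPM in ATO, against 152 and 220.4 CPM in control; their part in the result was not tested. In each of the other lists the gene with the smallest p did not pass. Among these were Erlin1, which encodes a scaffold protein of the endoplasmic reticulum (log2 0.23 ± 0.11), and Pdss1, of ubiquinone synthesis (-0.29 ± 0.16). Also in this group were the fatty acid elongase Elovl5 (0.27 ± 0.08) and the lysosomal lipase Lipa (0.42 ± 0.12). The adjusted p of these named genes in edgeR lay between 0.0740 and 0.367. Among 13 genes that SREBP-1 or LXR induces, most of them lipogenic, 0 passed in edgeR, with a median log2 fold change of 0.10. An unadjusted p under 0.05 in edgeR was found for 2 that were higher and 1 that was lower, against 18.1% of all genes.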

How the data were processed

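RNA from the hippocampus was sequenced by the submitters in 2 ATO and 2 control libraries, prepared, per the labels' protocols, from mRNA with a TruSeq kit. Per the submitters' processing notes, the tools were HISAT2 2.0.1, HTSeq 0.6.1 and cutadapt 1.9.1, with limma 3.47.15 and FastQC 0.10.1, on the build GRCm38; settings and strandedness of counting: not given in the sources used here. The authors deposited raw counts and FPKM per gene and library, with their log2 fold change, p-value and adjusted p-value, per the file headers. FPKM served only to compare levels between genes.

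These counts went into the quasi-likelihood test of edgeR 4.0.16 (R 4.3.3) with no covariate and Benjamini-Hochberg adjustment over 15713 genes, after TMM scaling (factors of 0.994 to 1.01). The filterByExpr step took out 0 genes. The coefficient of variation between libraries, which edgeR terms biological but which may be technical here, was 7.16% (common dispersion 0.00513). SE is the log2 fold change over the square root of F, and 95% intervals use its degrees of freedom. CPM are scaled by the TMM library size. Alternatives were other scalings and filters, DESeq2 1.42.0, limma-voom (limma 3.58.1), a replicate block and leaving out each library. Tests were tried on simulated data. Gene positions came from GENCODE vM21 (GRCm38) and promoters from RefSeq (GRCm38.p6). The members and lists were chosen with earlier results of these data known. Named in full are genes that passed and those with the smallest p. Other pathway genes are named where they passed, or as the smallest p of their list; 1 gene that this rule takes is not reported here.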

Additional observations from a re-analysis of the deposited data

How the results depend on the processing

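Among the 32 cholesterol genes, 1 passed with RLE size factors in edgeR, without a filter, and with the filter of over 5 CPM in at least 2 libraries. The count was 0 with library size only, in DESeq2's Wald test and in limma-voom, and 0 to 1 when each library was left out in turn. Among the other pathway genes 0 passed in DESeq2's Wald test, and 0 to 2 when each library was left out. Over all genes 316 passed in DESeq2's Wald test, and 222 to 611 when each library was left out, 222 without control replicate 2. A fit that leaves 1 library in a group takes it to vary like the other group. Nothing in the labels says whether same-numbered libraries share more than the number. Deviations of same-numbered libraries from their group means correlated at 0.0877 across genes. With the replicate number as a block, 1366 of all genes, 2 cholesterol genes (Srebf1 and Sc5d, adjusted p = 0.0464) and 4 other pathway genes passed. No call changed direction. The sign of the log2 fold change turned when 1 library was left out for 15 genes that never passed, with ranges of -0.069 to 0.1057 for Hmgcs1, -0.1657 to 0.0805 for Mvk, -0.0673 to 0.042 for Mvd, -0.1901 to 0.1394 for Fdps, -0.2863 to 0.0054 for Fdft1, -0.0698 to 0.0043 for Lss, -0.3736 to 0.0323 for Tm7sf2, -0.0174 to 0.3147 for Msmo1, -0.0031 to 0.1366 for Hsd17b7, -0.2697 to 0.0266 for Scap, -0.1895 to 0.0328 for Srebf2, -0.0377 to 0.056 for Nr1h2, -0.2227 to 0.0861 for Abca1, -0.0005 to 0.0477 for Abcg1 and -0.0893 to 0.3251 for Stard4. The cause of these moves was not tested.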
